A study of Mus musculus with 4 samples.

Results

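The genes described here are 10 subunits of the BAF (mammalian SWI/SNF) chromatin remodelling complex, taken from the RNA-seq counts of E13.5 mouse retinas by name, as the subunits that change or may change between dividing progenitors and neurons. They are 10 of the 24062 genes in the count table, and all 10 passed the filter on low counts that left 15762 genes to test. They fall into 3 progenitor subunits (*Actl6a*, *Phf10* and *Ss18*), 4 neuronal subunits (*Actl6b*, *Dpf1*, *Dpf3* and *Ss18l1*) and 3 shared subunits (*Dpf2*, *Smarca4* and *Smarca2*). The study compared wildtype retinas (WT, 2 libraries) with retinas labelled Nrf1-CKO, of genotype *Nrf1* f/f;Six3-Cre (2 libraries, called mutant here), all from E13.5 embryos on a C57BL/6 and 129 mixed background. In the mutant the floxed gene of Nrf1, a transcription activator of mitochondrial and other genes, is deleted by Cre under Six3 control, which acts in retinal progenitors of the central retina first, so the periphery can still hold undeleted cells. Each library was made from pooled retinas of several littermates, and the labels do not say whether the 2 libraries of a genotype came from separate pools of embryos, so that p-values measure the spread between these libraries.

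The BAF complex uses ATP to slide or evict nucleosomes, through 1 of the ATPases encoded by *Smarca4* (BRG1) and *Smarca2* (BRM). In vertebrate neural development its composition changes as progenitors leave the cell cycle. The actin-like subunit ACTL6A is exchanged for ACTL6B, the PHD finger protein PHF10 for DPF1 or DPF3, and SS18 for SS18L1 (CREST). The neuronal form is known for its part in dendrite growth and activity-dependent transcription. In the E13.5 retina most cells are progenitors, and retinal ganglion cells are the main neurons being made.

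All 4 neuronal subunits were called lower in the mutant, and none of the 3 progenitor and 3 shared subunits was called in either direction. *Actl6b* stood at 25.3% of its WT level, *Dpf1* at 64.9%, *Dpf3* at 68.9% and *Ss18l1* at 70.6%. The test was edgeR's quasi-likelihood test over all 15762 genes with Benjamini-Hochberg adjustment, and the study's own limits set the calls, a minimum fold of 1.4 with a maximum adjusted p of 0.2. Under this rule 8.04% of all tested genes were called lower and 12.8% higher. The shared subunits *Smarca4* and *Smarca2* met the limit on p (edgeR adjusted p = 0.0929 and 0.0303) and missed only the minimum fold. The median log2 fold change was -0.58 over the neuronal subunits, -0.08 over the progenitor subunits and -0.10 over the shared subunits, beside 0.00 over all tested genes. *Actl6b* belongs to a list of lower genes that the study itself drew from these libraries, so its direction here is not independent evidence. That list holds only the lower genes that are also enriched in cells expressing Atoh7, a factor essential for ganglion cell development. A gene absent from it can still be among the study's lower genes.

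Depth was similar, from 74577660 to 85933945 reads on genes per library, and normalization factors lay between 0.992 and 1.02. Standard errors are written SE. Reads of *Nrf1* itself were 9052 and 7789 in WT and 8594 and 8284 in the mutant (log2 fold change -0.03, SE 0.07, edgeR adjusted p = 0.794). These counts cover the whole gene, including exons outside the floxed part, so they do not check the genotype labels. Levels are given as CPM, the reads of a gene scaled to a common library size with TMM factors. Summed over 9 lens markers, the level was 138 and 376 CPM in WT and 7833 and 3209 CPM in the mutant, and the mutant libraries thus also differed from each other. Markers of 12 neuronal genes summed to 3508 and 3965 CPM in WT and 1565 and 1247 CPM in the mutant.

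The promoters of the neuronal subunits and of *Smarca4* are shown because Nrf1 is a promoter-binding factor and the retinas differ in that factor. Each run has 300 bases, 250 before and 50 after the RefSeq start of the gene on GRCm38.p6, written along the strand of the gene. Capitals mark a CCAAT box (CCAAT, or ATTGG on the other strand) and TGCGCA (the same on both strands). No marked element overlaps another. The CCAAT box was added to the search after these letters had been seen.
Actl6b, chr5:137553296-137553595, plus strand: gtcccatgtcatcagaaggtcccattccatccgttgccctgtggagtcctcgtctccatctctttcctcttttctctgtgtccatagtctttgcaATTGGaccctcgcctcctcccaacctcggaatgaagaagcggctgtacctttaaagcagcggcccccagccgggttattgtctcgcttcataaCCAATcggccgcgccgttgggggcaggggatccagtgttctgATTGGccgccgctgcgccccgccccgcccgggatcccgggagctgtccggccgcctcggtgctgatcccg
Dpf1, chr7:29303755-29304054, plus strand: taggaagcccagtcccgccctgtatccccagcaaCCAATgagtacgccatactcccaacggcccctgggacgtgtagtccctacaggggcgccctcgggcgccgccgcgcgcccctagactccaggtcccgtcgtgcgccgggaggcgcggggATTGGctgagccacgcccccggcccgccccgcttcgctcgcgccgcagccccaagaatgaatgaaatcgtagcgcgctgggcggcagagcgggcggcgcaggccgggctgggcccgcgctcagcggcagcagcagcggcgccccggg
Dpf3, chr12:83487687-83487986, minus strand: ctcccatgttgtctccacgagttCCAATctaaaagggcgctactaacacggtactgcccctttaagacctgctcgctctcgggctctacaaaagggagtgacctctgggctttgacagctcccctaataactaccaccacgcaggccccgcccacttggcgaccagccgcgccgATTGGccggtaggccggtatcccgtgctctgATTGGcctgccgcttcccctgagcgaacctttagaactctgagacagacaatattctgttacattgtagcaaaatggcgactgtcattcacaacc
Ss18l1, chr2:180042233-180042532, plus strand: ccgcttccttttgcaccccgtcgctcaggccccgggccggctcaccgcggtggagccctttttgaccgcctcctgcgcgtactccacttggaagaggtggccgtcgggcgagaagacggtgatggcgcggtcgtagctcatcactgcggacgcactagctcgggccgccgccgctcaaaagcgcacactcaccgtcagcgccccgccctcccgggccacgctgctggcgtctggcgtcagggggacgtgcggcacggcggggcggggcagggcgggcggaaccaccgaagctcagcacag
Smarca4, chr9:21615919-21616218, plus strand: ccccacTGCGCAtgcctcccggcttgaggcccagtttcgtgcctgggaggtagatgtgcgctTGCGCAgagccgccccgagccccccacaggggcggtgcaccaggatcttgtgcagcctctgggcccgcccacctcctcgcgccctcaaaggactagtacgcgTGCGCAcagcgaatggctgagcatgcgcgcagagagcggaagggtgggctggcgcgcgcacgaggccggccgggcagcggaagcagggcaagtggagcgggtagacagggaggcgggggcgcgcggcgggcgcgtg
Promoter sequence was found for 9 of the 10 genes, all but *Ss18*. The full palindrome bound by Nrf1, GCGCATGCGC, was in 0 of these 9 and in 0.971% of 32851 mouse promoters of the same length. Its inner part CGCATGCG was in 0 of 9, beside 1.87% of all promoters. The shorter TGCGCA was in 2 of 9, *Dpf2* and *Smarca4*, beside 7.76% of all promoters. In *Smarca4* it began 244, 188 and 86 bases before the start. The CCAAT box was in *Actl6b*, *Dpf1*, *Dpf3* and *Dpf2*, 4 of 9, beside 37.4% of all promoters. In *Actl6b* it began 155, 62 and 20 bases before the start, and in *Dpf3* 227, 76 and 45 bases before it. *Ss18l1* held none of these elements. The 9 promoters had a GC content of 55.3% to 87%, above the median of 52.7% over all promoters. A match is a string of letters, no binding was measured, and a missing match says only that the letters are not in this window.

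*Actl6b* (ENSMUSG00000029712, chromosome 5, 137553517 to 137569582 of GRCm38) encodes the actin-like subunit of the neuronal complex. It had 1042 and 1106 reads in the WT libraries and 324 and 237 in the mutant libraries, that is 11.9 and 14.9 CPM against 3.90 and 2.86 CPM. Both mutant libraries lay far below both WT libraries. The log2 fold change was -1.99 (SE 0.20, edgeR adjusted p = 0.000253, 95% interval -2.43 to -1.54), a 3.96-fold lower level. On the normalized log2 values of the authors the difference was -1.14 by limma and still called, but that scale puts a gene with 0 reads at 8.13, so its differences are not fold changes of low genes. The study's own list prints *Actl6b* as 2.2-fold lower, which equals the limma difference read as a fold and is smaller than the 3.96-fold of edgeR. Over called genes with a mean under 10 CPM the median difference on it was 34.8% of that from edgeR, at 10 to 100 CPM 78.7% and at 100 CPM or more 96.2%. In bulk samples fewer cells of a type and less RNA per cell cannot be told apart, here and for every gene that follows.

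*Actl6a* (ENSMUSG00000027671, chromosome 3, 32706298 to 32726973) encodes the subunit that ACTL6B replaces, and is also part of the INO80 and TIP60 complexes. Its levels were 135 and 121 CPM in WT and 114 and 129 CPM in the mutant. The groups overlapped. The log2 fold change was -0.08 (SE 0.09, edgeR adjusted p = 0.615), and its interval ran from -0.29 to 0.13, so that a mutant level between 82.0% and 110% of WT is compatible with these 4 libraries. Exons of *Mrpl47* on the opposite strand cover 452 bases, 11.6%, of the exons of *Actl6a*, and no source used here states whether the counting used strand.

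*Dpf1* (ENSMUSG00000030584, chromosome 7, 29303951 to 29318243) encodes a double PHD finger subunit that reads histone tails in the neuronal complex. It stood at 29.0 and 29.1 CPM in WT and at 18.01 and 19.7 CPM in the mutant. The 2 WT libraries were almost equal, and both mutant libraries lay below them. The log2 fold change was -0.62 (SE 0.10, edgeR adjusted p = 0.00233). *Dpf3* (ENSMUSG00000021221, chromosome 12, 83213745 to 83487716), its relative that also acts in muscle, stood at 45.8 and 54.4 CPM in WT and at 35.6 and 33.4 CPM in the mutant. The groups did not overlap, though the WT libraries were farther apart than for *Dpf1*. Its log2 fold change was -0.54 (SE 0.10, edgeR adjusted p = 0.00521).

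*Phf10* (ENSMUSG00000023883, chromosome 17, 14945009 to 14961273), the PHD finger subunit of progenitors, had 62.2 and 54.7 CPM in WT and 59.4 and 57.7 CPM in the mutant. Both mutant values lay between the WT values. The log2 fold change was 0.00 (SE 0.09, edgeR adjusted p = 0.991, interval -0.19 to 0.20). Exons of 1600012H06Rik on the other strand cover 9.57% of its exons. *Dpf2* (ENSMUSG00000024826, chromosome 19, 5896516 to 5913010), the widely expressed member of the same family, had 161 and 156 CPM in WT and 149 and 147 CPM in the mutant. Its groups did not overlap, but the log2 fold change of -0.10 (SE 0.07, edgeR adjusted p = 0.397, interval -0.26 to 0.07) did not pass the test.

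*Ss18l1* (ENSMUSG00000039086, chromosome 2, 180042509 to 180070201) encodes CREST, a calcium-responsive coactivator of the neuronal complex. Its levels were 47.0 and 51.1 CPM in WT and 34.99 and 34.3 CPM in the mutant, with no overlap. The log2 fold change was -0.50 (SE 0.08, edgeR adjusted p = 0.00295), a 1.42-fold lower level that lay just past the minimum fold of 1.4. *Ss18* (ENSMUSG00000037013, chromosome 18, 14624198 to 14682914), its progenitor counterpart, had 102 and 99.0 CPM in WT and 94.9 and 94.98 CPM in the mutant. Its log2 fold change was -0.08 (SE 0.07, edgeR adjusted p = 0.486, interval -0.25 to 0.09).

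The calls of *Dpf3* and *Ss18l1* rested on WT replicate 2. Without that library their log2 fold changes were -0.41 and -0.44, short of the minimum fold, and 2 of the 4 neuronal subunits were called, against all 4 when any other library was left out. On the compressed scale of the authors' normalized values the differences were -0.46 and -0.43, short of the same limit, with limma adjusted p of 0.00495 and 0.00295. *Ss18l1* also missed the minimum fold with upper-quartile scaling (-0.46). *Actl6b* and *Dpf1* were called in all 12 alternative fits.

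*Smarca4* (ENSMUSG00000032187, chromosome 9, 21616169 to 21704230), the ATPase that neural progenitors need to divide, had 1008 and 1063 CPM in WT and 872 and 918 CPM in the mutant. The groups did not overlap, and the log2 fold change was -0.21 (SE 0.08, edgeR adjusted p = 0.0929), which is under the minimum fold. *Smarca2* (ENSMUSG00000024921, chromosome 19, 26605050 to 26778322), the alternative ATPase, had 35.2 and 34.0 CPM in WT and 43.8 and 41.5 CPM in the mutant. It was the only one of the 10 genes with both mutant libraries above both WT libraries. Its log2 fold change of 0.30 (SE 0.08, edgeR adjusted p = 0.0303, interval 0.11 to 0.49) was also under the minimum fold and was not called. With an adjusted p up to 0.05 and no minimum fold, *Smarca2* and the 4 neuronal subunits passed, 5 of 10, beside 22.8% of all tested genes. Groups without overlap were seen for 8 of the 10 genes, beside 62.5% of all tested genes, and in 7 of them the mutant was below, beside 31.6%.

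**Figure D1:**
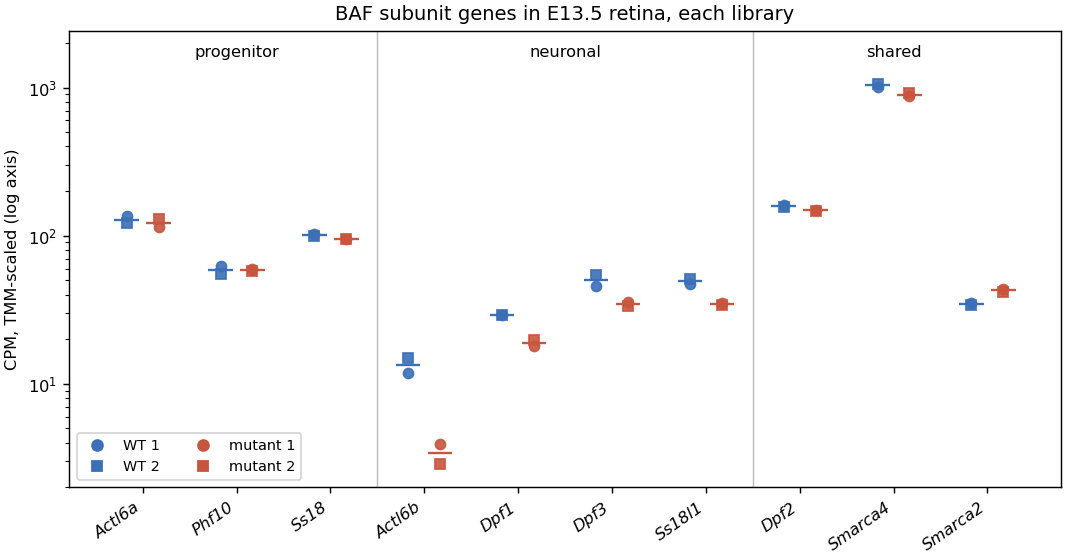
CPM, scaled with TMM factors and on a log axis, of the 10 BAF subunit genes in each WT (blue) and mutant (red) library, where circles are replicate 1, squares replicate 2 and short lines the means. The mutant points of *Actl6b*, *Dpf1*, *Dpf3* and *Ss18l1* lie below the WT points, while those of *Actl6a* and *Phf10* overlap them.

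Levels were compared between genes only as CPM per kilobase of annotated exon. In WT the order ran from *Smarca4* at 160 ± 5.99 (SD, n = 2), through *Actl6a* at 32.9 ± 2.59 and *Dpf2* at 24.4 ± 0.470, to *Phf10* at 11.9 ± 1.09, *Dpf3* at 11.9 ± 1.43, *Ss18l1* at 11.3 ± 0.677 and *Ss18* at 10.7 ± 0.210. Below these came *Dpf1* at 5.41 ± 0.0207, *Actl6b* at 3.14 ± 0.499 and *Smarca2* at 2.42 ± 0.0577. *Phf10*, *Dpf3* and *Ss18l1* overlapped in their libraries and have no order beyond their spread. Both values of *Ss18* lay below those of these 3 genes, though its higher value and the lower value of *Ss18l1* were equal to 3 digits. In the mutant *Actl6b* had the lowest level of the 10, 0.793 ± 0.172, below *Smarca2* at 2.99 ± 0.111. *Smarca2* has 14269 annotated exon bases in 46 transcripts, and a shorter form in use would raise its level on this scale.

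The ratio between a neuronal gene and its counterpart within each library does not depend on scaling between libraries. The *Actl6b* to *Actl6a* ratio per exon base was 8.02% and 11.2% in WT and 3.12% and 2.03% in the mutant. On the log2 scale it differed by -1.92, a 3.78-fold lower ratio. *Dpf1* stood at 42.6% and 48.7% of *Phf10* in WT and at 27.7% and 31.3% in the mutant, a log2 difference of -0.63. *Dpf3* stood at 85.6% and 116% of *Phf10* in WT and at 69.6% and 67.3% in the mutant, a log2 difference of -0.54 that was -0.32 without WT replicate 2. Against the widely expressed *Dpf2* the log2 differences were -0.53 for *Dpf1* and -0.44 for *Dpf3*.

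*Ss18l1* stood at 100.01% and 112% of *Ss18* per exon base in WT and at 80.0% and 78.2% in the mutant, a log2 difference of -0.42. Which of these 2 genes is higher in WT depends on length, since without length correction the WT log2 ratio was -1.04, and the exons of *Ss18* sum to 9419 bases against 4343 for *Ss18l1*. *Smarca2* stood at 1.58% and 1.45% of *Smarca4* in WT and at 2.28% and 2.05% in the mutant, a log2 difference of 0.51 in the other direction. In all 7 ratios the genotypes did not overlap, beside 62.5% of all tested genes taken singly. The share over ratios of other genes was not computed. *Dpf1*, *Dpf3*, *Phf10* and *Dpf2* each enter more than 1 ratio, so the 7 are not separate results. They are given as values with no test.

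**Figure D2:**
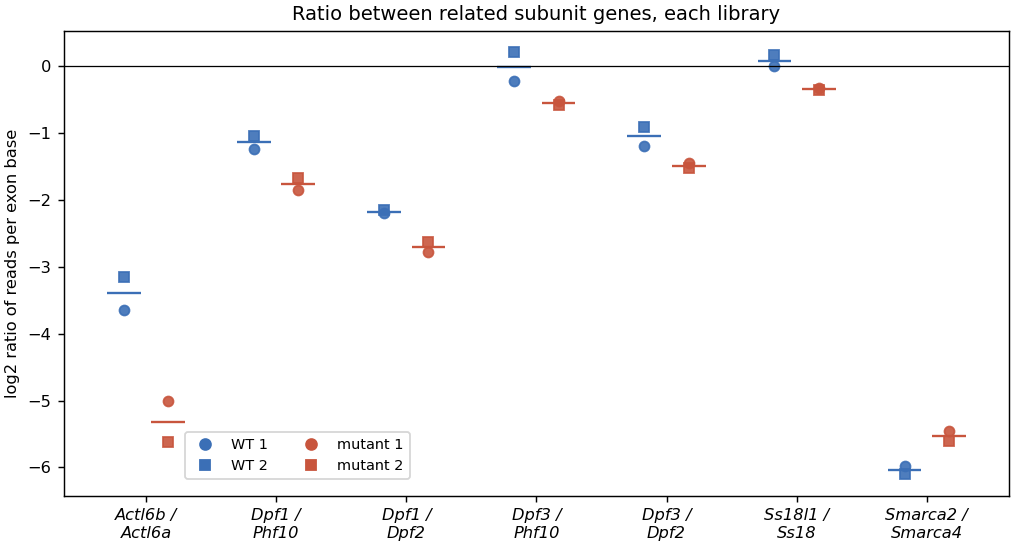
Log2 ratio of reads per annotated exon base between related subunit genes in each WT (blue) and mutant (red) library, with means as short lines. The 6 ratios of a neuronal to a progenitor or shared gene are lower in both mutant libraries, and the ratio of *Smarca2* to *Smarca4* is higher. Some ratios share genes, and none was tested.

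The remaining subunits of BAF complexes did not pass the thresholds. Of 21 other subunits in the table, 0 were called by edgeR, 0 by DESeq2 and 0 by limma, and 8 of 21 had an unadjusted p under 0.05, beside 34.8% of all tested genes, which is near the share in this list. Their log2 fold changes lay between -0.46 and 0.45, with a median of -0.02. *Bcl7a*, a small accessory subunit, had 139 and 134 CPM in WT and 101 and 96.8 CPM in the mutant, the lowest of these log2 fold changes (-0.46, standard error 0.08, adjusted p = 0.00265 by edgeR). *Gltscr1*, which marks the non-canonical complex, had 18.9 and 21.3 CPM in WT and 29.9 and 25.1 CPM in the mutant, the highest (0.45, standard error 0.12, adjusted p = 0.0261 by edgeR). The scaffold pair *Smarcc1* and *Smarcc2* had log2 fold changes of 0.06 (adjusted p = 0.714 by edgeR) and -0.33 (adjusted p = 0.0153 by edgeR). *Arid1a* and *Arid1b*, which define the canonical complex, had 0.26 and -0.01. *Bcl7a* and *Gltscr1* were chosen after their values were seen.

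The other complexes that hold ACTL6A, INO80 and TIP60, were covered by 6 genes, of which 0 were called by edgeR, DESeq2 or limma and 0 had an unadjusted p under 0.05, with log2 fold changes from -0.09 to 0.08. Of all tested genes 8.04% were called lower, 12.8% higher and 34.8% had such a p. Among 13 ATPases of other remodellers, such as *Chd4* and *Chd7*, 0 were called by any of these tools and 1, *Chd9*, had an unadjusted p under 0.05, beside the same 34.8% (log2 fold change -0.31).

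**Figure D3:**
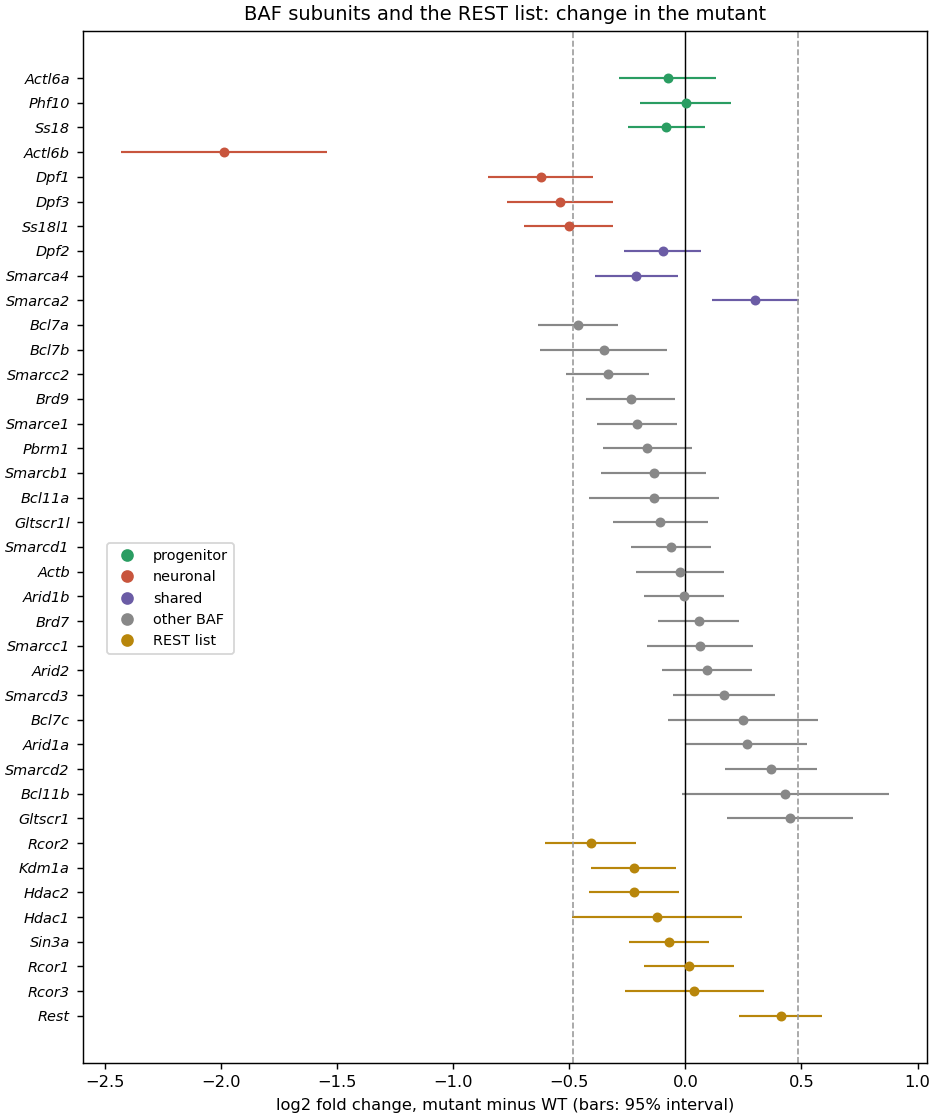
Log2 fold change, mutant minus WT, of the 10 subunit genes, the 21 other BAF subunits and 8 genes of REST and its corepressors, with 95% intervals from the edgeR fit as bars and the 1.4-fold limits as dashed lines. *Actl6b* lies apart at -1.99, *Dpf1*, *Dpf3* and *Ss18l1* lie just past the lower limit, and the other genes lie within both limits.

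The exchange of ACTL6A for ACTL6B is known to involve REST, a repressor of neuronal genes in progenitors, and the microRNAs miR-9* and miR-124, which REST represses and which act on the *Actl6a* transcript. Of 8 genes of REST and its corepressors 0 were called by edgeR, DESeq2 or limma, and 4 of 8 had an unadjusted p under 0.05, beside the 34.8% of all tested genes. *Rest* had 111 and 110 CPM in WT and 141 and 153 CPM in the mutant, with no overlap. Its log2 fold change was 0.41 (SE 0.08, edgeR adjusted p = 0.00574), under the minimum fold. *Rcor2*, a corepressor of progenitors, had -0.41 (SE 0.09, edgeR adjusted p = 0.00948).

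Mature microRNAs were not measured, but 4 long transcripts that RefSeq names as host genes of miR-124 or that hold a miR-9 gene were in the table, and they were looked up after the subunits had been seen. A hairpin was listed inside 2 of them, C130071C03Rik and Mir9-3hg, and for the other 2 the link to miR-124 is their name only. Mir124a-1hg (listed as A930011O12Rik) had 6163 and 4645 reads in WT and 2800 and 1998 in the mutant. It was called lower, at a log2 fold change of -1.20 (adjusted p = 0.000558 by edgeR, SE 0.14), and it is on the study's own list of lower genes from these libraries, so this is not independent evidence. Mir124-2hg (listed as 2610100L16Rik) was called lower at -0.77 (adjusted p = 0.00133 by edgeR), and C130071C03Rik, which holds Mir9-2, at -1.18 (adjusted p = 0.000489 by edgeR). Mir9-3hg (listed as AI854517) had only 21 to 54 reads per library and was not called (-1.07, adjusted p = 0.23 by edgeR). *Actl6a*, the known target, had overlapping groups, as given above.

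The miR-9* strand is shown because it is known to act on *Actl6a*, and these data do not test that. In the RefSeq sequence of the microRNA the capitals are the seed, and in the GENCODE transcript Actl6a-201 they are the letters that pair with it, in the UTR after the coding sequence, where the match begins at base 38 of 371.
mmu-miR-9-3p: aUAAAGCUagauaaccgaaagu
Actl6a site: acctcaacgtctgtAGCTTTAg
A match to this seed is found in 11.2% of the corresponding regions of 20939 genes.

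Neuron and progenitor markers were set beside the subunits. All 12 neuron markers, such as *Tubb3*, *Stmn2* and *Isl1*, were called lower, with log2 fold changes from -2.35 to -0.97 and a median of -1.53. Of these 12, 11 (all but *Map2*) are, like *Actl6b*, on the list of lower genes that the study drew from these libraries, so their direction was fixed by that choice and is not independent evidence. *Actl6b* at -1.99 lay inside the range of these markers, and *Dpf1*, *Dpf3* and *Ss18l1* at -0.62, -0.54 and -0.50 lay above its upper end. Relative to the mean log2 CPM of the 12 markers, *Actl6b* differed by -0.44 between mutant and WT, while *Dpf1*, *Dpf3* and *Ss18l1* were higher by 0.93, 1.02 and 1.05. These are descriptions. A smaller fall than that of genes chosen as lower is in part built in, and the difference between subunits and markers was not tested.

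Of 13 progenitor markers, 2 were called lower, *Ccnd1* (-0.88), a cyclin of the G1 phase that is also on the study's list, and *Hes5* (-0.72), a Notch target, and 0 higher. Their median was -0.10, near the -0.08 of the progenitor subunits, and the summed level was 9330 and 9763 CPM in WT and 7756 and 8132 CPM in the mutant. Most of the difference in that sum was *Ccnd1* alone, at 2541 and 2775 CPM in WT and 1390 and 1502 CPM in the mutant. Of 6 photoreceptor precursor markers, *Crx* (-0.50) and *Rxrg* (-1.19) were called lower by edgeR, and limma on the normalized values called 1.

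Markers of cells outside the neural retina were mostly higher in the mutant. All 9 lens markers were called higher, with log2 fold changes from 2.61 to 5.005, as were 4 of 6 tested pigment epithelium markers, 6 of 7 of microglia and macrophages, 4 of 5 of endothelium and 4 of 7 of periocular mesenchyme (2 of 7 by limma on the normalized values). The fifth endothelial marker, *Kdr*, which progenitors also express, was called lower (-0.55). Summed levels were 206 and 146 CPM in WT and 375 and 397 CPM in the mutant for pigment epithelium, and 72.3 and 66.8 CPM against 198 and 239 CPM for microglia and macrophages. For endothelium they were 254 and 260 against 265 and 258 CPM, and for mesenchyme 168 and 119 against 222 and 194 CPM. Most of the endothelial sum was *Kdr* alone, at 200 and 211 CPM in WT and 144 and 137 CPM in the mutant. That sum therefore hides the rise of the other 4 endothelial markers. Of 5 tested erythroid markers 2 were called higher by edgeR and 0 by limma, with an unadjusted edgeR p under 0.05 for 2, and the summed level of all 8 was 550 and 650 CPM in WT and 712 and 713 CPM in the mutant, with *Hba-a1* and *Hbb-bt* at 0. The part of these cells in the values of the subunits was not tested.

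**Figure D4:**
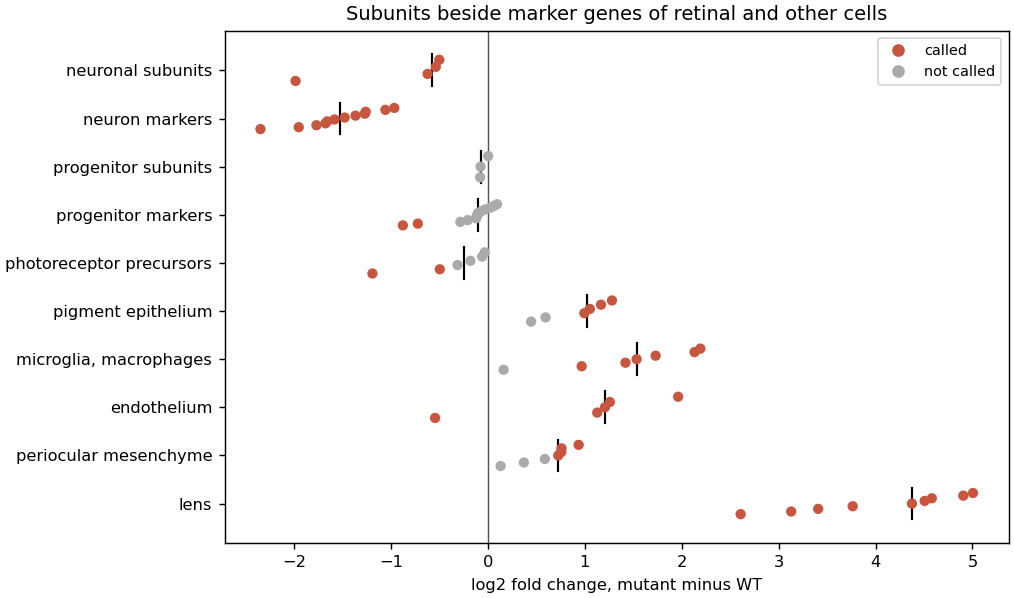
Log2 fold changes, mutant minus WT, of the neuronal and progenitor subunits beside marker genes of 8 cell types, 1 point per gene, with called genes in red, others in grey and medians as black lines. *Actl6b* falls among the neuron markers, the other neuronal subunits lie between the neuron markers and 0, and the progenitor subunits lie near 0. Of the 12 neuron markers, 11 are on the study's list of lower genes from these libraries, so their fall is in part built in.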

How the data were processed

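RNA-seq counts of 2 WT and 2 mutant libraries were used. According to the study and the submitters' processing notes, the authors aligned reads to mm10 with TopHat2 and deposited whole-number counts per gene from HTSeq. The authors also deposited normalized values on a log2 scale, and the notes name DESeq and limma among their tools without saying which step used them. The study names Cuffdiff for its differential expression, so its limits on fold and adjusted p were applied here to a different test. Summary entries (74.0% to 75.0% of all, with 54.6% to 58.0% not uniquely aligned) stayed out of library sizes and tests, so near-identical copies lose reads. Genes were filtered with filterByExpr (minimum count 10), scaled with TMM factors and tested with edgeR 4.0.16 in R 4.3.3, and the steps were tested on simulated data. Standard errors came from the fold change and its F statistic, and 95% intervals from the same fit. Intervals cover counting error and the spread of 2 libraries, and PCR copies are not independent molecules. The alternatives were DESeq2 1.42.0, other scalings, filters and thresholds, a replicate block, limma 3.58.1 on the log2 values, and each library left out. Exon lengths are unions of GENCODE M21 exons on GRCm38. The rule named all 10 subunits and, of other lists, called genes and up to 4 examples by level. Names given beyond it (*Rest*, *Chd9*, *Smarcc2*, *Arid1b*, *Bcl7a*, *Bcl11b*, *Gltscr1*) were chosen after their values were seen. Members and lists were chosen with earlier results of these data known.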

Additional observations from a re-analysis of the deposited data

How the results depend on the processing

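*Actl6b* and *Dpf1* kept their direction and their call in all 12 alternative fits, with log2 fold changes of -2.22 to -1.14 and -0.69 to -0.49. *Dpf3* (-0.65 to -0.41) was called in 10 of 12 and *Ss18l1* (-0.56 to -0.43) in 9 of 12, the latter also missing the minimum fold with upper-quartile scaling (-0.46). The number of members called lower was 2 to 4 when each library was left out. It was 2 with limma on the deposited values, which called 723 genes lower and 945 higher in all, on a scale whose floor of 8.13 shrinks differences of low genes below the minimum fold. With an adjusted p up to 0.05 and no minimum fold, 1 member was called higher (*Smarca2*), and 2 other BAF subunits were called lower and 2 higher. Upper-quartile scaling called 1 other BAF subunit higher (*Gltscr1*). With each library left out, other BAF subunits called lower ranged from 0 to 1 (*Bcl7a*) and called higher from 0 to 2 (*Bcl11b* and *Gltscr1*). All tested genes called lower ranged from 1071 to 1402 and higher from 1703 to 1856. The replicate block left 4 members called lower, with 1256 genes lower and 1970 higher in all. The deviations of same-numbered libraries had a correlation of -0.0025. That value shows no common deviation by replicate number, but it cannot exclude that the libraries were prepared in pairs. Without length correction the WT log2 ratio of *Ss18l1* to *Ss18* reversed to -1.04, while differences between genotypes stay the same by construction. With 237 to 1106 reads, *Actl6b* had the largest standard error of the 10.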
